A study of Mus musculus with 5 samples.

Results

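Prrx1, Prrx2, Twist1, Twist2, Pdgfra and Pdgfrb, 4 transcription factor genes and 2 receptor genes of embryonic connective tissue, were followed cell by cell in mouse embryonic blood. The 6 genes were chosen by their symbols, and all 6 were rows of a table of 24411 genes. The study asked what the circulating cells outside the blood lineages are at mid-gestation. Blood from the heart of wild-type C57BL/6 embryos was sorted to leave out cells with TER119, CD41, CD43 or CD45, and single cells were picked with a mouth pipette and sequenced with a modified STRT-seq protocol, which counts unique molecular identifiers (UMIs). The E10 group held 3 batches (87, 72 and 63 cells kept) and the E9.5 group held 2 batches (26 and 46 cells kept). All groups shared strain, genotype, tissue and sort. No label ties a batch to a litter or a day of its own, and the p-values given here therefore measure the spread among these 5 batches, which may be technical.

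Prrx1 and Prrx2 encode paired-related homeobox factors, which bind DNA with a TAATTA-like core and are used by the mesenchyme of the face and limbs. Twist1 and Twist2 encode basic helix-loop-helix factors, which pair with E proteins such as the product of Tcf4 and bind the E-box CANNTG. Twist1 is needed in head mesenchyme and the limb bud, and Twist2 is also known as a factor of the early dermis. Pdgfra and Pdgfrb encode receptor tyrosine kinases: the alpha receptor is bound by PDGF-A and PDGF-C and marks many mesenchymal progenitors, and the beta receptor is bound by PDGF-B and marks cells around blood vessels.

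In the GRCm38 annotation Prrx1 lies on chromosome 1 at 163245119-163313710 on the minus strand. Twist2 lies on the same chromosome at 91801461-91848028, Prrx2 on chromosome 2 at 30834972-30881251, Twist1 on chromosome 12 at 33957671-33959829 and Pdgfra on chromosome 5 at 75152292-75198215, these 4 on the plus strand. RefSeq promoters of build GRCm38.p6, from 250 bases before the start to 50 bases after it, were at hand for 5 of the 6 genes. They are shown to set out where the DNA motifs of the members' own protein families occur in them. The E-box, spelled CANNTG, was in 1 of the 5 member promoters (Pdgfra, with 2 matches), against 72.3% of 32851 mouse promoters of the same length. The homeobox core TAATTA was in 1 of the 5 (Prrx1, with 1 match), against 5.29% of the 32851 promoters. Both spellings read the same on either strand, and the patterns cannot overlap each other. The promoters with a match, and that of Prrx2, which held neither, are printed with the matches in capitals.
Prrx1 promoter, chr1:163313601-163313900, minus strand: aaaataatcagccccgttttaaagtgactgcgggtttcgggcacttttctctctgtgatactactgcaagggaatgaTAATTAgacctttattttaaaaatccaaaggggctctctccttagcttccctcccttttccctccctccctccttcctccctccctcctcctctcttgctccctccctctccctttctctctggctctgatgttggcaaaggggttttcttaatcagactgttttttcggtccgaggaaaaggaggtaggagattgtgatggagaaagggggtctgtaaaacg
Pdgfra promoter, chr5:75152001-75152300, plus strand: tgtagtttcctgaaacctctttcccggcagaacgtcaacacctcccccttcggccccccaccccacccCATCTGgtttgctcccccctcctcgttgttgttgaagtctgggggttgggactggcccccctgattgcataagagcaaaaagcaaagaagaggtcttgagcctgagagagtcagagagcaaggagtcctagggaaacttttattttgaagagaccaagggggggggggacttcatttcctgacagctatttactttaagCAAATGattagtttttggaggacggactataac
Prrx2 promoter, chr2:30845117-30845416, plus strand: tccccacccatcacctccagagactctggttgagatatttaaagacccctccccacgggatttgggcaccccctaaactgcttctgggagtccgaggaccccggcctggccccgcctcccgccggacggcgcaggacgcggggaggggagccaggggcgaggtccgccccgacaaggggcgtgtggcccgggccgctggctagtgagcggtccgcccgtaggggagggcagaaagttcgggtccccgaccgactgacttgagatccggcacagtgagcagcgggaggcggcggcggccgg
A match is a run of letters and shows no binding, and no binding was measured here.

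Of 480 wells, 294 held at least 1000 genes and 30000 UMIs and were kept, with a median of 308924 UMIs per cell (31294 to 1407021) and of 7391.5 genes. Clustering on other genes gave 12 clusters. They fell into 45 erythroid-like cells, 15 haematopoietic progenitor-like cells, 42 neural or neural crest-like cells, 22 cells led by Dppa5a, Zfp42 and Tdh, and 170 remaining cells in 6 clusters that were given no cell type name. Red cell genes were thus present despite the TER119 gate, while the defining leukocyte gene Ptprc (CD45) had a median of 0 CPM in each class. RNA of the other 2 gated antigens was found in progenitor-like cells, with medians of 27.5 CPM of Spn (CD43) and 11.5 CPM of Itga2b (CD41). In erythroid-like cells the medians were 0 CPM of Spn and 4.25 CPM of Itga2b. The 22 Dppa5a-led cells all came from E10 replicate 1 and carried 8501 of the 8701 UMIs assigned to a row named RGC-GFP, a reporter name, in the kept cells. Shares, co-expression and stage comparisons, which include these cells, are also given without them. Wells that held no kept cell resembled the same well number of another batch, at 2.11% of its UMIs in E10 replicate 2, 0.622% in E10 replicate 3, and 2.76% and 1.35% in the E9.5 replicates 1 and 2. Of the 96 well numbers, 90 held a kept cell in 2 or more batches, and results with this transfer subtracted are given where they differ.

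The members stood high in the remaining cells and low in the blood-lineage cells, and all but Twist2 also stood high in the Dppa5a-led cells. The median remaining cell held 244 CPM (the cell's UMIs of a gene scaled to the same fixed total in every cell) of Prrx1, 159 CPM of Twist1, 81.9 CPM of Prrx2, 70.6 CPM of Pdgfra, 27.9 CPM of Twist2 and 19.8 CPM of Pdgfrb. The highest remaining cell held 1605 CPM of Prrx1, 826 CPM of Prrx2, 900 CPM of Twist1, 573 CPM of Twist2, 615 CPM of Pdgfra and 347 CPM of Pdgfrb. In the median erythroid-like cell the values were 13.3 CPM of Prrx1, 11.1 CPM of Twist1, 4.55 CPM of Prrx2, 4.81 CPM of Pdgfra, 7.40 CPM of Twist2 and 0.941 CPM of Pdgfrb, and no erythroid-like cell passed 44.0 CPM of any member. The median Dppa5a-led cell held 127 CPM of Prrx1, 114 CPM of Prrx2, 92.7 CPM of Twist1, 68.1 CPM of Pdgfra and 32.1 CPM of Pdgfrb, but 2.37 CPM of Twist2, which was below the erythroid-like median. Those cells all came from E10 replicate 1, which held 0 erythroid-like cells. In the remaining cells of that batch the Twist2 median was 13.6 CPM. A level of 50 CPM, chosen after these values were seen, therefore lay above each of the 45 erythroid-like cells.

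At least 1 UMI of Prrx1 was found in 95.6% of the 294 cells, of Twist1 in 96.3%, of Prrx2 in 86.4%, of Pdgfra in 83.7%, of Twist2 in 75.5% and of Pdgfrb in 63.9%. For the transcription factors these shares lay close together in remaining and erythroid-like cells. Prrx1 had a UMI in 97.1% of remaining cells and in 95.6% of erythroid-like cells, Twist1 in 96.5% and 100%, Prrx2 in 87.1% and 82.2%, and Twist2 in 81.8% of remaining and 82.2% of erythroid-like cells. The receptors were further apart, at 90.6% of remaining against 68.9% of erythroid-like cells for Pdgfra and 77.1% against 51.1% for Pdgfrb. Twist2 had a UMI in 47.6% of the 42 neural-like cells. The median depths were 262146 UMIs in remaining and 367346 UMIs in erythroid-like cells. A share at 1 UMI near that of erythroid-like cells does not set a class apart, and its source was not tested. With the transfer between batches subtracted, 30 of the 45 erythroid-like cells held at least 10 CPM of Prrx1 and 25 held that of Twist1. At 50 CPM the remaining cells with Prrx1 numbered 129 of 170 (75.9%), with Twist1 122 (71.8%), with Pdgfra 97 (57.1%), with Prrx2 96 (56.5%), with Twist2 68 (40.0%) and with Pdgfrb 64 (37.6%). The erythroid-like cells lay below that level by its choice. None of the 15 progenitor-like cells reached it for any member. A count of 0 in 15 cells has an exact binomial upper limit of 21.8% if the cells are independent. These cells share batches, so that limit covers counting error only. Of the 22 Dppa5a-led cells 15 reached 50 CPM for Prrx1, 15 for Prrx2, 14 for Twist1, 12 for Pdgfra, 4 for Twist2 and 4 for Pdgfrb.

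**Figure D1:**
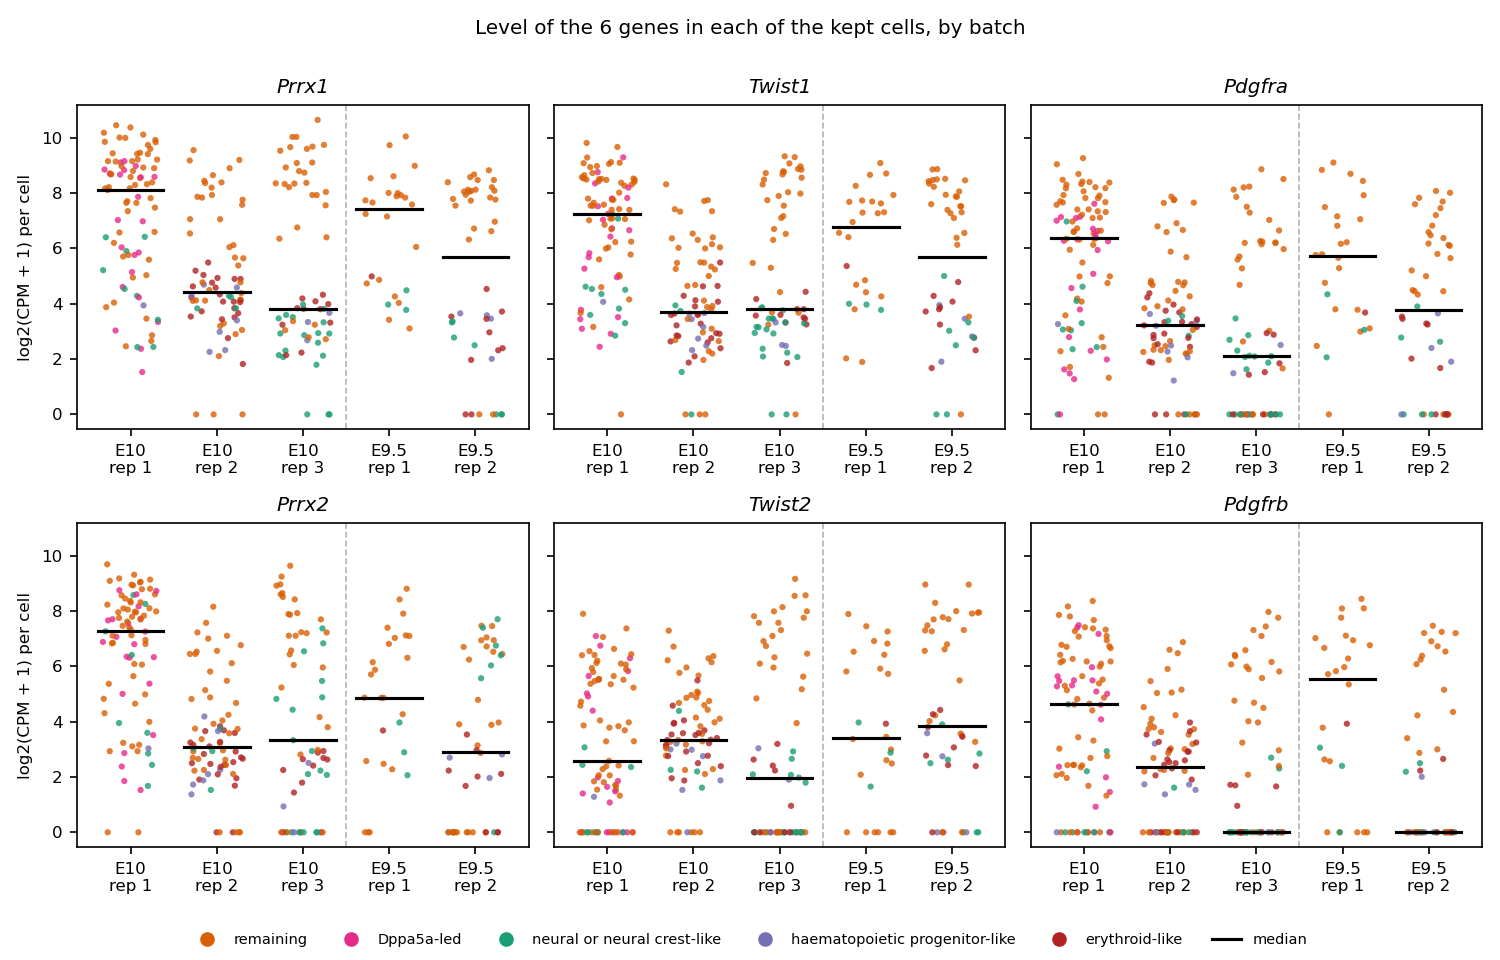
Level of each member in every kept cell, as log2(CPM + 1) on the vertical axis, for the 3 E10 batches and then the 2 E9.5 batches, with points coloured by cell class and a black line at the batch median. Prrx1 has medians of 276, 20.7 and 13.1 CPM in E10 replicates 1 to 3 and of 171 and 50.6 CPM in E9.5 replicates 1 and 2, so the batches of a stage spread widely.

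Averaged over batches, Prrx1 stood at 305 ± 128 CPM in remaining cells (SD, n = 5 batches), 222 CPM in the Dppa5a-led cells of 1 batch, 15.6 ± 12.6 CPM in neural-like cells (n = 5), 10.2 ± 2.39 CPM in progenitor-like cells (n = 3) and 12.9 ± 6.18 CPM in erythroid-like cells (n = 3). Twist1 followed the same order, at 196 ± 86.0 CPM in remaining cells, 141 CPM in Dppa5a-led cells and 13.2 ± 9.28, 7.44 ± 1.18 and 11.8 ± 0.285 CPM in neural-like, progenitor-like and erythroid-like cells. Pdgfra averaged 109 ± 42.0 CPM in remaining cells and 64.1 CPM in Dppa5a-led cells. Pdgfrb averaged 56.6 ± 26.8 CPM and Twist2 81.3 ± 59.0 CPM in remaining cells, against 41.9 and 25.6 CPM in Dppa5a-led cells. In E10 replicate 1, the batch of the Dppa5a-led cells, the remaining cells averaged 35.6 CPM of Twist2. In neural-like, progenitor-like and erythroid-like cells Pdgfra, Pdgfrb and Twist2 averaged under 10 CPM, with spreads that overlapped between the classes. Twist2 and Pdgfrb were slightly higher in erythroid-like cells (7.09 ± 4.57 and 2.10 ± 2.25 CPM) than in neural-like cells (4.48 ± 3.02 and 1.97 ± 1.72 CPM), within their spread. Prrx2 averaged 125 ± 86.4 CPM in remaining cells over 5 batches and 145 CPM in the Dppa5a-led cells of E10 replicate 1. In that batch alone the remaining cells held 235 CPM of Prrx2 and 445 CPM of Prrx1, against 145 and 222 CPM in Dppa5a-led cells. Both genes thus had the same order there. Prrx2 stood at 49.2 ± 48.8 CPM in neural-like cells, 3.85 ± 2.11 CPM in progenitor-like cells and 4.23 ± 1.57 CPM in erythroid-like cells. The 9 mesenchymal marker genes, mostly collagens and matrix genes, had a median summed level of 782 CPM in remaining, 723 in Dppa5a-led, 425 in neural-like, 61.8 in progenitor-like and 66.6 in erythroid-like cells. Of these markers Lum, Dcn and Tnc had a median of 0 CPM in all 5 classes.

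**Figure D2:**
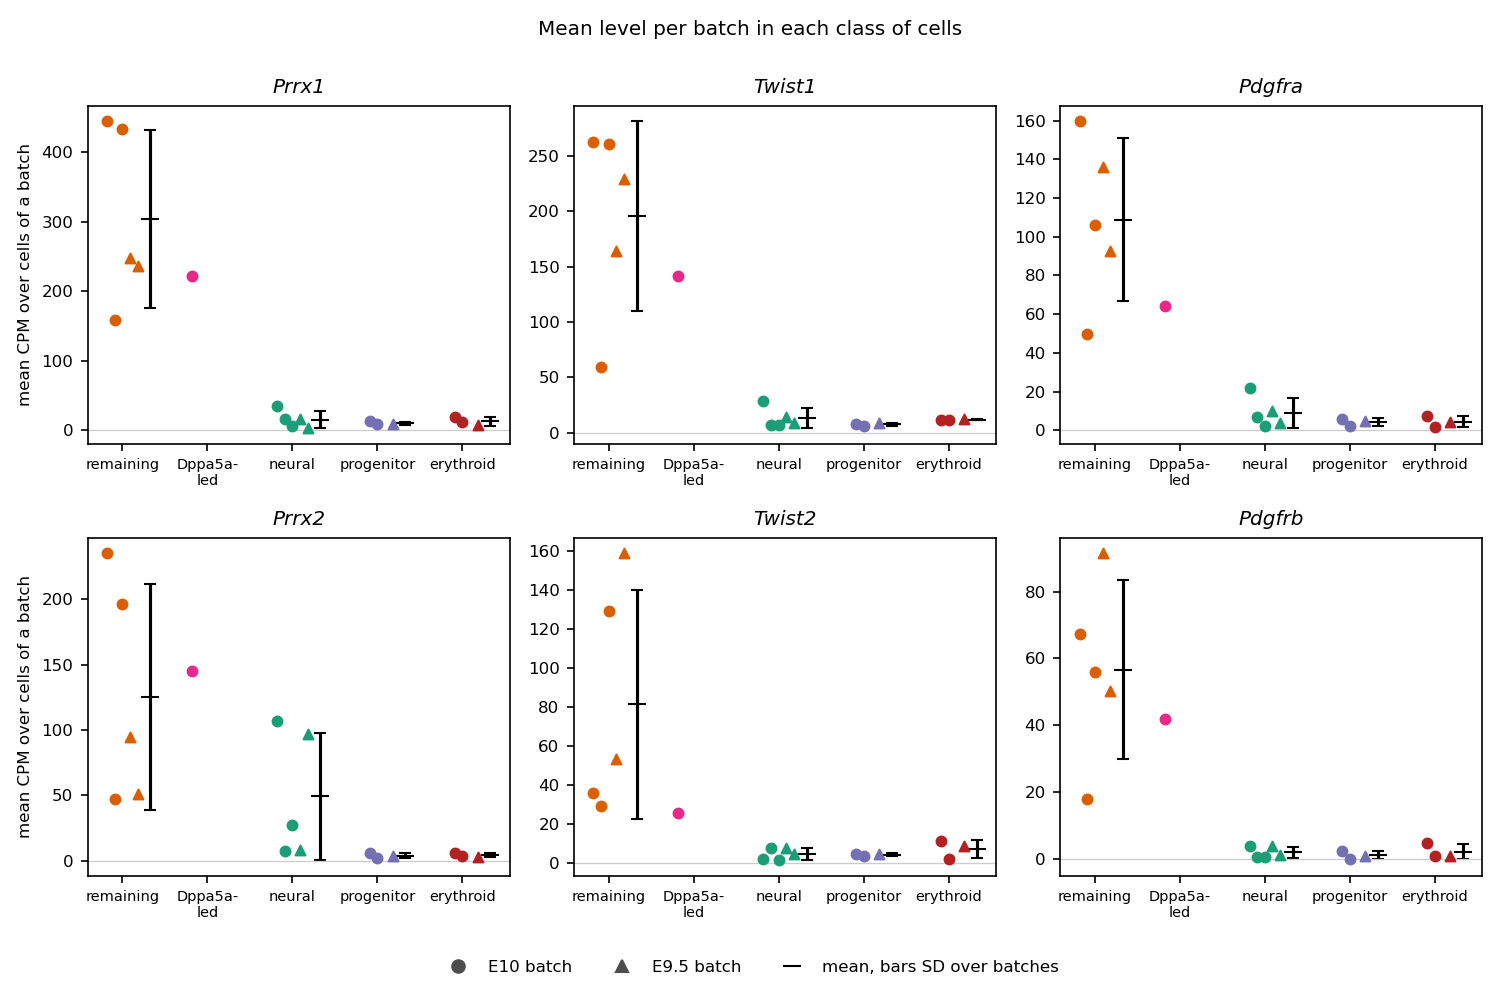
Mean CPM of each member per batch in the 5 cell classes, with circles for E10 and triangles for E9.5 batches and bars for the mean ± SD over batches. The remaining cells and the Dppa5a-led cells of 1 batch lie highest, and Prrx2 alone has neural-like batches near 100 CPM.

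UMIs were then summed per batch and class, where at least 3 cells were present, and remaining cells were compared with erythroid-like cells of the same batch in 3 batches with edgeR's quasi-likelihood test (batch as a term, Benjamini-Hochberg adjustment over 11852 genes). All 6 members were higher in remaining cells, where 12.4% of all genes were higher. Because the classes were formed from the same cells, these p-values describe the groups as formed. Prrx1 held 114 and 301 CPM in the remaining cells of E10 replicates 2 and 3 and 193 CPM in those of E9.5 replicate 2, against 22.2, 14.8 and 10.2 CPM in erythroid-like cells of those batches, a log2 fold change of 3.61 (SE 0.38, edgeR adjusted p = 6.86e-07). Twist1 held 40.8, 165 and 180 CPM in remaining cells in the same batch order, against 12.2, 15.8 and 15.6 CPM in erythroid-like cells (2.87, SE 0.38, edgeR adjusted p = 1.29e-05). Prrx2 held 38.8, 124 and 36.9 CPM, against 7.54, 4.87 and 3.76 CPM (3.41, SE 0.51, edgeR adjusted p = 5.04e-05). For each of these genes no erythroid-like sum reached a remaining one. Twist2 held 25.0, 95.6 and 137 CPM in remaining cells, against 11.9, 2.68 and 10.7 CPM in erythroid-like cells, 3.20 on the log2 scale (SE 0.59, edgeR adjusted p = 0.000411). Pdgfra held 34.9, 61.5 and 74.3 CPM, against 8.12, 2.19 and 6.44 CPM (3.38, SE 0.55, edgeR adjusted p = 0.000127). Pdgfrb held 16.0, 33.9 and 37.8 CPM, against 5.22, 0.973 and 1.07 CPM (3.69, SE 0.81, edgeR adjusted p = 0.00210), and without E9.5 replicate 2 its call was lost (edgeR adjusted p = 0.0715). E10 replicate 2 had the lowest remaining level of 5 members and the highest erythroid-like level of 5. The median log2 fold change of the members was 3.40, against 0.18 over all genes. Erythroid marker RNA was also found in remaining cells, with a median summed level of 8775 CPM against 188234 CPM in erythroid-like cells, and its part in these differences was not tested.

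Against neural or neural crest-like cells, which were led by Dbh, Th and Isl1 in one cluster and by Sox10 and Foxd3 in the other, the members were also higher in remaining cells, with Prrx2 the weakest. All 6 were called over 5 batches, where 2.85% of 12926 genes were higher and 5.72% differed in either direction. Prrx1 held 430, 159 and 417 CPM in remaining cells of E10 replicates 1 to 3 and 246 and 260 CPM in those of E9.5, against 36.6, 17.0, 5.77, 17.9 and 4.19 CPM in neural-like cells, 4.44 on the log2 scale (SE 0.40, edgeR adjusted p = 7.47e-07). The alpha receptor gene Pdgfra held 155, 48.5, 85.2, 133 and 100.1 CPM in remaining cells in that batch order, against 28.2, 8.11, 2.04, 12.3 and 3.49 CPM in neural-like cells (3.65, SE 0.46, edgeR adjusted p = 4.90e-05). No neural-like sum of either gene reached any remaining one. Twist1 held 267, 56.7, 229, 150 and 242 CPM in remaining cells, against 34.9, 8.11, 6.79, 14.6 and 8.38 CPM in neural-like cells (3.81, SE 0.37, edgeR adjusted p = 1.77e-06). Twist2 held 32.96, 34.8, 132, 53.5 and 184 CPM, against 1.73, 5.16, 1.19, 5.60 and 4.19 CPM (4.55, SE 0.57, edgeR adjusted p = 4.75e-05). Pdgfrb held 67.8, 22.3, 47.0, 91.1 and 50.9 CPM, against 5.48, 0.738, 0.340, 3.36 and 1.40 CPM (4.96, SE 0.62, edgeR adjusted p = 4.18e-05). These 3 genes too were higher in remaining cells in 5 of 5 batches. Prrx2 held 236, 53.9, 172, 83.6 and 49.6 CPM in remaining cells, against 100.3, 7.38, 18.9, 6.72 and 99.2 CPM in neural-like cells, and was higher in 4 of 5 batches (1.95, SE 0.52, edgeR adjusted p = 0.0313). In E9.5 replicate 2 the neural-like sum was the higher of the pair. The Prrx2 call was lost without the batch term (1.26, edgeR adjusted p = 0.435), with sums of at least 5 cells (1.16, edgeR adjusted p = 0.307) and without E9.5 replicate 1 (edgeR adjusted p = 0.127), E10 replicate 1 (0.0660), E10 replicate 2 (0.0839) or E10 replicate 3 (0.221). The median over the members was 4.13, against 0.18 over all genes.

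Within a pair of related genes, the share of the pair's UMIs taken by the one member can be set between classes without a scale for depth. Prrx2 took 73.3%, 30.3% and 76.6% of the Prrx1 and Prrx2 UMIs of neural-like cells in E10 replicates 1 to 3 and 27.3% and 95.9% in E9.5 replicates 1 and 2, against 35.4%, 25.4%, 29.1%, 25.3% and 16.0% in remaining cells. The neural-like share was the higher in each of the 5 batches, though barely so in E9.5 replicate 1. The mean was 60.7% ± 30.4 in neural-like cells and 26.3% ± 7.05 in remaining cells (SD, n = 5 batches), a difference of 34.4 points (two-sided exact permutation test over signs of 5 batches, p = 0.0625, the smallest it can give). The neural-like counts of Prrx2 and Prrx1 were 348 and 127 UMIs, 10 and 23, 111 and 34 in the E10 batches and 6 and 16, 142 and 6 in the E9.5 batches. The 2 batches with low shares had 4 and 3 neural-like cells. A few cells held much of the Prrx2 signal: the top neural-like cell carried 55.5% of it in E10 replicate 1 and 32.4% in E9.5 replicate 2, and Prrx2 exceeded Prrx1 in 4 of 9, 0 of 4 and 7 of 19 neural-like cells of the E10 batches and in 0 of 3 and 6 of 7 of the E9.5 batches. Both neural-like clusters leaned to Prrx2, at 77.5% of pair UMIs in the cluster led by Dbh and Th and 72.4% in the cluster led by Sox10. At 50 CPM, 12 of the 42 neural-like cells (28.6%) held Prrx2, 3 held Prrx1, 1 held Twist1, 1 held Pdgfra and none held Twist2 or Pdgfrb. Erythroid-like cells, which had low levels of both genes, had Prrx2 shares of 25.4%, 24.7% and 26.9% in E10 replicates 2 and 3 and E9.5 replicate 2, close to those of all kept cells of the same batches, at 25.6%, 30.5% and 29.1%.

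In the receptor pair the Pdgfrb share rested on few UMIs in neural-like cells: 19, 1 and 2 Pdgfrb UMIs beside 98, 11 and 12 Pdgfra UMIs in E10 replicates 1 to 3, and 3 and 2 beside 11 and 5 in the E9.5 replicates. In E10 replicate 1 a single cell held 78.9% of the Pdgfrb UMIs, and the mean neural-like level of 1.97 CPM was near the 2.10 CPM of erythroid-like cells. With these counts Pdgfrb took 17.8% ± 7.64 of the pair in neural-like cells and 34.4% ± 4.06 in remaining cells (SD, n = 5 batches), lower in 5 of 5 batches by a mean of 16.6 points (two-sided exact permutation test over signs, p = 0.0625, again the smallest possible). For Twist2 the share was 23.9% ± 13.9 of the Twist1 and Twist2 UMIs in neural-like cells and 31.0% ± 12.8 in remaining cells, a difference of -7.12 points that lay within the spread between batches (two-sided exact permutation test over signs, p = 0.25). In remaining cells Twist2 took 10.97% of its pair in E10 replicate 1, the lowest of the 5 batches, against 43.2% in E9.5 replicate 2, the highest.

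**Figure D3:**
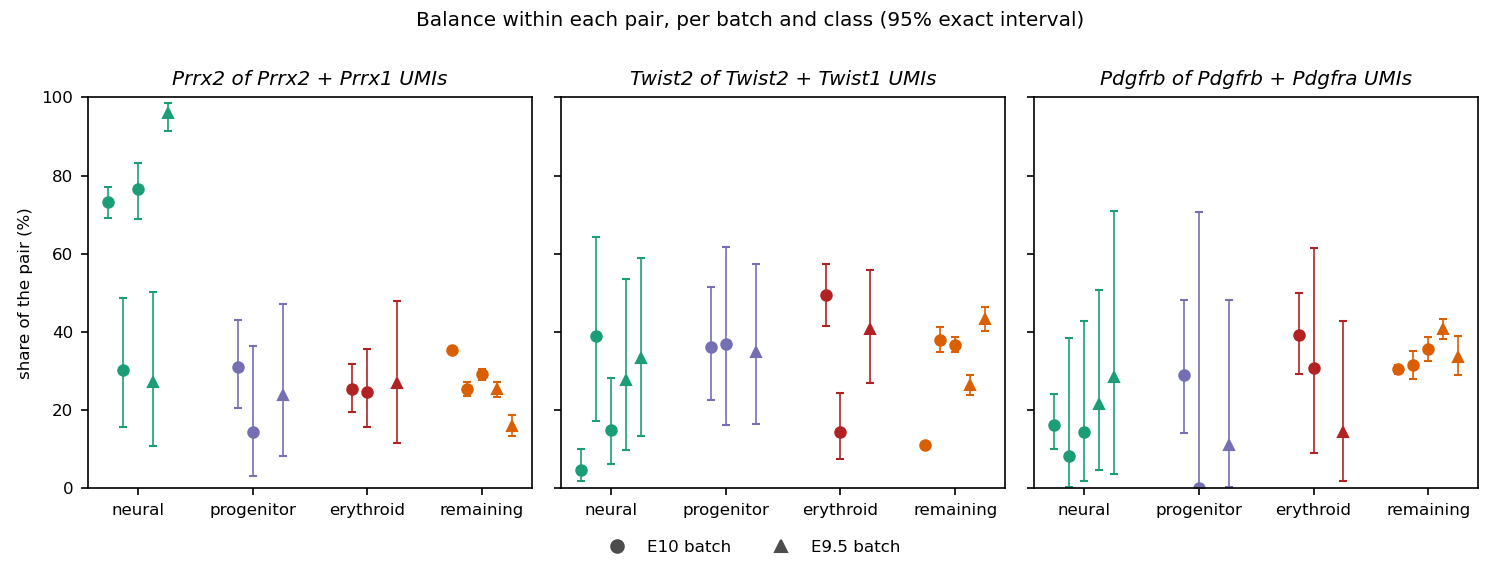
Share of a pair's UMIs taken by Prrx2, Twist2 or Pdgfrb in percent, per batch and class, with 95% exact binomial intervals that cover counting error only. The Prrx2 share is 95.9% in the neural-like cells of E9.5 replicate 2, and stays between 16.0% and 35.4% in remaining cells.

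The remaining clusters carried the members in different proportions, and since the clusters came from the same cells these values are a description. The cluster led by Terf2ip and Dcaf17, with 18 cells, had the highest mean Prrx1 level (727 CPM) and high Prrx2 (260 CPM) and Twist1 (327 CPM). The cluster led by Ebf2 and Tgfb2, 27 of whose 30 cells came from E10 replicate 1, had the highest mean levels of Prrx2 (294 CPM), Twist1 (363 CPM) and Pdgfra (198 CPM), but Twist2 at only 45.6 CPM, 8.97% of the Twist pair. The cluster led by Acta2, Tagln, Cldn5, Plvap and Ecscr had the highest mean Pdgfrb level (97.7 CPM) beside 193 CPM of Pdgfra. Of its 24 cells, 16 came from E9.5 replicate 1. Leading genes were ranked by mean level. At a median of 20 CPM and 2-fold, this cluster passed 5 mesenchymal markers, 1 endothelial marker (Egfl7) and 0 smooth muscle and pericyte markers. Twist2 was highest in the cluster led by Hist2h2ac and Mpped2, at 145 CPM, with 23 of 34 cells from E9.5 replicate 2. The cluster led by Pcp4 and the neural tube and somite factor Pax3 had 158 CPM of Prrx2 against 142 CPM of Prrx1. It also had the highest Pdgfrb share of the receptor pair in pooled UMIs, 63.1%. Its means were 54.2 CPM of Pdgfrb and 24.2 CPM of Pdgfra, but its medians were 4.93 and 7.13 CPM. The pooled share thus did not describe its median levels. The 49 cells of the cluster led by Car12, Col4a1 and Hoxc10, of which 37 came from E10 replicate 2, had the lowest mean Twist1 (64.0 CPM) and Pdgfrb (20.8 CPM) of the remaining clusters. Cluster and batch overlapped so far that they cannot be told apart here.

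**Figure D4:**
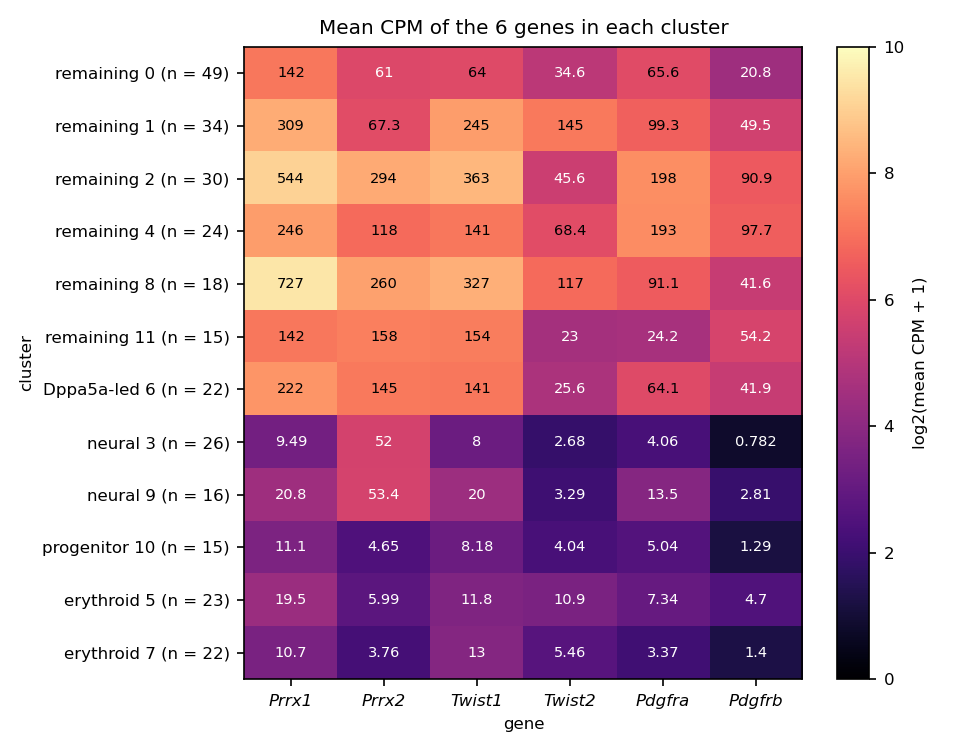
Mean CPM of each member in the 12 clusters, shown as colour and printed values, one row per cluster. The 6 remaining clusters reach 142 to 727 CPM of Prrx1, and the erythroid-like, progenitor-like and neural-like clusters stay at or below 20.8 CPM of Prrx1.

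The members were often found in the same cell. At 50 CPM, 108 of the 294 cells (36.7%) held none of the 6, 61 (20.7%) held 5 or 6, and 11 (3.74%) held all 6. Without the Dppa5a-led cells these were 104 (38.2%), 56 (20.6%) and 11 (4.04%) of 272. The 11 cells with all 6 were remaining cells. Of the 170 remaining cells, 15 held none, 18 held 1, 18 held 2, 21 held 3, 42 held 4, 45 held 5 and 11 held 6. Of the 42 neural-like cells, 29 held none, 11 held 1, 1 held 2 and 1 held 4. At 1 UMI all 6 were found together in 43.9% of cells, with 54.7% of remaining and 31.1% of erythroid-like cells. That measure thus includes the low levels found in erythroid-like cells. After thinning to 30000 UMIs per cell the share over all cells stood at 11.6%. Without the Dppa5a-led cells the 1 UMI share was 42.6%. The median summed mesenchymal marker level was 90.2 CPM in the cells with none of the members at 50 CPM, and 269.5, 625.3, 618, 880, 1194 and 1112 CPM in those with 1 to 6 of them.

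Prrx1 and Twist1 were the pair found together most. At 50 CPM 123 cells held both, which was 83.7% of the Prrx1 cells and 89.8% of the Twist1 cells, while Twist1 was found in 9.52% of the cells without Prrx1. With the Dppa5a-led cells left out 109 cells held both, 82.6% of the Prrx1 cells and 88.6% of the Twist1 cells. Twist2 was seldom found without them: 91.7% of its cells held Prrx1 and 91.7% held Twist1. Of the Pdgfrb cells 92.6% held Prrx1 and 72.1% held Pdgfra, and 49 cells (16.7% of all) held both receptors. Prrx2 and Twist2 overlapped less, with Twist2 in 35.0% of the Prrx2 cells. As a description over 294 cells, which share batches and depth, Pearson's r of log2(CPM + 10) after centring on batch means was 0.738 for Prrx1 with Twist1, 0.603 for Prrx1 with Pdgfra, 0.575 for Twist1 with Twist2, 0.519 for Prrx1 with Prrx2 and 0.445 for Pdgfra with Pdgfrb. It was lowest for Prrx2 with Pdgfra, at 0.314, and Prrx2 with Twist2, at 0.317. Over the 272 cells without the Dppa5a-led ones, r was 0.728 for Prrx1 with Twist1, 0.602 for Prrx1 with Pdgfra, 0.578 for Twist1 with Twist2, 0.509 for Prrx1 with Prrx2, 0.438 for Pdgfra with Pdgfrb, 0.300 for Prrx2 with Pdgfra and 0.301 for Prrx2 with Twist2. Within the 170 remaining cells alone r was 0.485 for Prrx1 with Twist1 and 0.079 for Prrx2 with Pdgfra, so that much of the likeness lay between classes.

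**Figure D5:**
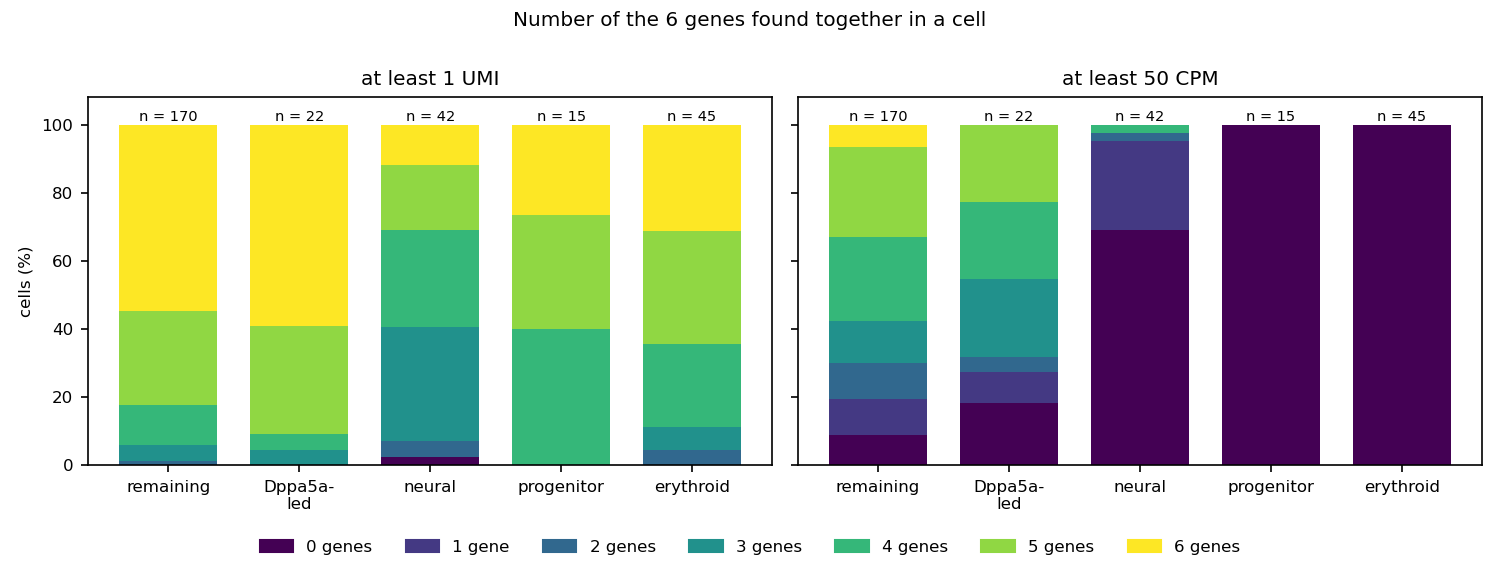
Number of the 6 members found per cell, as stacked shares of the cells of each class in percent, at 1 UMI or more and at 50 CPM or more. At 50 CPM all erythroid-like and progenitor-like cells hold none, and 32.9% of remaining cells hold 5 or 6.

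The genes most like each member were sought among 10495 genes by the same batch-centred r over the 294 cells. The collagen gene Col3a1 was among the 5 most like genes of all 6 members, with r of 0.726 for Prrx1, 0.648 for Twist1, 0.610 for Pdgfra, 0.564 for Pdgfrb, 0.514 for Twist2 and 0.504 for Prrx2. So was Gpc3, which encodes a cell-surface heparan sulfate proteoglycan, with r of 0.652 for Prrx1 and 0.619 for Twist1. Prrx1 and Twist1 were each other's nearest gene. Pdgfra alone was nearest to Col1a1, the type I collagen gene, at 0.689, with the growth factor gene Igf2 (0.547) also among its 5. Prrx1 and Twist1 shared Cyr61, a matricellular protein gene, at 0.607 and 0.601. Lpar1, a lysophosphatidic acid receptor gene, completed the list of Prrx1 at 0.655, the homeobox gene Meis2 that of Twist1 at 0.592, Hmga2 that of Twist2 at 0.511 and Col26a1 that of Prrx2 at 0.455. Pdgfrb was the 27th gene in the order of likeness to Pdgfra, and Prrx2 the 145th.

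Genes around the members were taken from 5 lists, whose median log2 fold changes of remaining over erythroid-like cells were 2.90 for E-protein and Id genes, 0.68 for PDGF signalling, 2.10 for epithelial-mesenchymal transition, 2.74 for head and 3.23 for trunk and limb regulators, against 0.18 over all genes. Over neural-like cells they were 0.23, -0.10, 0.34, 2.28 and 3.62 in the same order, against 0.18. Lower calls made up 13.5% of genes in the first comparison and 2.86% in the second. Of the E-protein and Id genes, whose products pair with or hold off TWIST proteins, 8 of 8 tested were higher in remaining than in erythroid-like cells, among them Id2 (log2 fold change 3.48, SE 0.28, edgeR adjusted p = 3.84e-08), Id4 (3.42) and Tcf4 (3.10). Against neural-like cells 1 of 9 was higher and 1 lower, both outside the naming rule because 1 of 5 batches went the other way and named after their values were seen: Id1 (0.82, edgeR adjusted p = 0.026) and the TWIST partner Hand2 (-3.33, edgeR adjusted p = 0.00188). Tcf4 stood at 0.06 there and was not called. Of the 18 genes of PDGF ligands and signalling, 3 of 16 tested were higher in remaining than in erythroid-like cells and 1 lower. The alpha receptor ligand gene Pdgfc was higher (3.49, SE 0.70, edgeR adjusted p = 0.00102), as were the kinase gene Src (2.41) and the Ras GTPase activator gene Rasa1 (0.97), and the docking protein gene Gab1 was lower (-1.62, SE 0.44, edgeR adjusted p = 0.00972). Against neural-like cells none of 17 was called, and Pdgfc stood at 2.58 (edgeR adjusted p = 0.0516).

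Of 8 genes of epithelial-mesenchymal transition, 6 were higher in remaining than in erythroid-like cells, including the cadherin genes Cdh11 (3.35) and Cdh2 (3.21) and the zinc finger factor gene Snai2 (3.17). Against neural-like cells 4 were higher and 2 lower: Snai2 (3.17, edgeR adjusted p = 0.00372), Cdh11 (2.07) and Snai1 (2.05) were higher in remaining cells, while Zeb2, a factor also used by neural crest and neurons, was lower by 2.35 (log2 fold change -2.35, edgeR adjusted p = 0.000417) and the intermediate filament gene Vim by 1.17 (-1.17). Of the head mesenchyme regulators 5 of 11 tested were higher than in erythroid-like cells, with the aristaless-like genes Alx1 (4.84) and Alx4 (2.94) and the forkhead gene Foxc1 (3.72) among them. Against neural-like cells 4 of 13 were higher, with Alx4 (4.55) and Foxd1 (3.81) among them, and the distal-less genes Dlx1 (-3.33) and Dlx2 (-3.28) were lower. Of the trunk and limb regulators 4 of 13 were higher than in erythroid-like cells and 4 of 14 than in neural-like cells, in both with Osr1 (3.92 and 5.02), a factor of intermediate and lateral plate mesoderm, and the somite gene Meox1 (3.23 and 4.16), and in the erythroid-like comparison with the limb gene Shox2 (3.67).

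Between stages no member passed a test. The 50 CPM level lay above each of the 45 erythroid-like cells, but 0 of these came from E10 replicate 1 and 1 from E9.5 replicate 1. The erythroid-like level in those batches is therefore little known. At 50 CPM Twist2 was found in 21.8%, 11.1% and 28.6% of the cells of E10 replicates 1 to 3. In E9.5 replicates 1 and 2 it was found in 38.5% and 37.0% of the cells. The groups did not overlap at this level, but the share of all genes that do so was not counted. In sums per batch the Twist2 groups overlapped. The mean shares at 50 CPM were 20.5% ± 8.81 at E10 and 37.7% ± 1.06 at E9.5 (SD, n = 3 and 2 batches), a difference of -17.2 points (two-sided exact permutation p = 0.2). E10 replicate 1 stood at 23.1% without its Dppa5a-led cells. With each cell thinned to 30000 UMIs, a UMI of Twist2 was found in 37.9% ± 3.25 of cells at E10 against 37.96% ± 4.73 at E9.5, with almost no difference. For the others the groups overlapped at 50 CPM. Prrx1 was found in 46.5% ± 24.3 of cells at E10 against 55.8% ± 8.16 at E9.5, a difference of -9.22 points, and Pdgfrb in 19.5% ± 13.4 against 35.9% ± 19.98, a difference of -16.4 points. Prrx2 was found in 41.2% ± 26.3 at E10 against 39.4% ± 9.58 at E9.5, Twist1 in 42.4% ± 26.4 against 53.8% ± 5.44, and Pdgfra in 34.9% ± 23.5 against 41.3% ± 12.3. The two-sided exact permutation p-values of these 5 ran from 0.4 to 1, and 3 batches against 2 cannot go below 0.1. The measure at 1 UMI was near its ceiling for Prrx1 and Twist1, and close between remaining and erythroid-like cells for the transcription factors. At 1 UMI the E10 minus E9.5 differences were 4.63 points for Prrx1, 11.1 for Prrx2 and -0.56 for Twist1. They were -5.16 for Twist2, -2.37 for Pdgfra and 3.10 for Pdgfrb, with p-values of 0.4 to 0.9 in the same exact test. Those of Prrx1 and Pdgfrb thus had the other sign than at 50 CPM. Without the Dppa5a-led cells the 1 UMI differences were 4.63 points for Prrx1, 10.9 for Prrx2, -0.69 for Twist1, -4.43 for Twist2, -2.38 for Pdgfra and 2.95 for Pdgfrb.

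In sums over all kept cells of a batch, 0 of the 6 members and 0% of 14103 genes passed edgeR's quasi-likelihood test between stages, while 1119 genes had an unadjusted p under 0.05 and DESeq2 called 86. Prrx1 held 285, 82.9 and 149 CPM in E10 replicates 1 to 3, against 194 and 89.7 CPM in E9.5 replicates 1 and 2 (log2 fold change 0.28, SE 0.55). Prrx2 held 170.1, 28.5 and 65.5 CPM at E10, against 66.0 and 36.8 CPM at E9.5 (0.78, SE 0.70). Twist1 held 183, 31.7 and 84.3 CPM at E10, against 119 and 85.9 CPM at E9.5 (-0.04, SE 0.64). For these 3 genes E10 replicate 1 was the highest batch and E10 replicate 2 the lowest. Twist2 held 25.3, 20.8 and 46.8 CPM at E10, against 42.7 and 64.2 CPM at E9.5 (-0.79, SE 0.43). Pdgfra held 102, 26.3 and 30.5 CPM at E10, against 104 and 35.7 CPM at E9.5 (-0.40, SE 0.69), and Pdgfrb held 46.8, 12.3 and 16.5 CPM, against 71.5 and 17.1 CPM (-0.81, SE 0.74). The groups overlapped for each of the 6. These sums mix cell classes, and a batch with fewer remaining cells cannot be told apart from less RNA per remaining cell in them. Without the Dppa5a-led cells 0 of 6 were called, and the fold changes were 0.43 for Prrx1, 0.91 for Prrx2, 0.10 for Twist1, -0.78 for Twist2, -0.21 for Pdgfra and -0.69 for Pdgfrb. None of the 5 companion lists had a gene called between stages.

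In the remaining cells alone 0 of 6 members and 0% of 12523 genes were called by edgeR, with 1577 genes at an unadjusted p under 0.05 and 279 called by DESeq2. Prrx2 had the largest difference, with 229, 53.3 and 167 CPM at E10 against 83.4 and 50.1 CPM at E9.5 (1.16, SE 0.53, edgeR adjusted p = 0.407), and the groups overlapped. With no filter on low counts it was called (1.17, edgeR adjusted p = 0.0479) among 306 genes. On simulated counts with known changes the test recovered 8 of 100 genes changed 4-fold in the comparison of all cells and 41 of 100 in that of remaining cells. Of genes changed 2-fold it recovered 0 of 100 and 2 of 100, so changes of that size would mostly be missed.

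Remaining cells were also split by the summed level of Hox genes of paralogue groups 9 to 13, which are used in the posterior trunk. The cut gives a range of RNA level, not a position in the body or a cell type. Cells with at least 100 CPM were compared with the other remaining cells within 4 batches, and 15 of the 170 cells lay between 50 and 200 CPM. This split was chosen after the data were seen. None of the 6 members was called by edgeR, where 0.0753% of 11947 genes were called, 0.0335% higher and 0.0419% lower, and 627 had an unadjusted p under 0.05. DESeq2 called 84 genes. Pdgfra was 1.11 lower on the log2 scale in the posterior Hox cells (-1.11, SE 0.35, edgeR adjusted p = 0.620). It stood at 78.3 ± 49.6 CPM against 146 ± 17.5 CPM (SD, n = 4 batches) and lay lower in 4 of 4 batches. In E10 replicate 1 the values were close, at 145 against 150 CPM. Some sums held few cells: 8 posterior Hox cells in E10 replicate 1, and 5 and 6 other cells in E10 replicate 2 and E9.5 replicate 2. Twist2 stood at 1.12 (SE 0.38, edgeR adjusted p = 0.724), higher in 4 of 4 batches. The others lay between -0.41 for Prrx2 and 0.03 for Twist1. Hox RNA as a whole was low, under 100 CPM in sum, in 6 of the 170 remaining cells, too few to compare.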

How the data were processed

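Single circulating cells of E10 and E9.5 mouse embryos were analysed from the deposited table of raw UMI counts, which holds 24411 gene rows and 95 rows of spike-ins or reporters over 480 wells, 96 a batch. Per the submitters' processing notes, CASAVA 1.8, TopHat2 2.0.12, HTSeq and mm10 were used. The strand setting is not given in the sources used here, so reads of overlapping genes cannot be told apart; of those annotated over a member, Mir7025 within Pdgfra was in the table, with 80 UMIs. The series text calls the method Smart-Seq, while the labels' protocols describe modified STRT-seq.

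Cells with at least 1000 genes and 30000 UMIs were kept, and batch totals ran from 7545865 to 44415774 UMIs. All 294 profiles were distinct. No doublet caller was run, since single cells were picked into wells. Counts were scaled to CPM without the spike-in and reporter rows. Clustering used Python 3.11.15 with leidenalg 0.10.2 and scanpy 1.11.5, 2000 variable genes, 20 components, 15 neighbours and resolution 1.0, leaving out sex-linked, ribosomal and globin genes, the members and the companion lists. A name needed at least 3 markers at a median of 20 CPM and 2-fold, 1 of them among its 10 leading genes, a rule that was refined after the clusters were seen. Sums of at least 3 cells were tested with edgeR 4.0.16 under R 4.3.3 (quasi-likelihood, filterByExpr, TMM, Benjamini-Hochberg over all genes tested at 0.05), with batch as a term between classes. DESeq2 1.42.0 was an alternative. The edgeR step was tested on simulated data. Shares were compared with exact permutation tests in scipy 1.17.1, and 95% intervals are exact binomial ones.

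Of the companion lists, up to 3 genes a direction were named by largest called fold change with the same direction in every batch, and the 5 genes with the highest r for each member. Some genes that this rule names are not reported here. The members, the lists and the classes were chosen with earlier results of these data known. A planned comparison of cells with low Hox RNA was replaced by that of posterior Hox cells, since only 1 batch had enough cells. Leaving out wells carried over from another batch changed nothing, since none was kept at 30000 UMIs.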

Additional observations from a re-analysis of the deposited data

Results flagged for a closer look

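Rows of the table outside the gene counts held UMIs of reporter names, although the labels give wild-type embryos. The row RGC-GFP held 8701 UMIs in the kept cells, of which 8691 lay in E10 replicate 1, in 36 of its 87 cells. The 22 Dppa5a-led cells held 8501 of them, with UMIs in all 22 and at most 1569 in a cell, while the progenitor-like cells held 128, 127 of them in 1 cell, the remaining cells 48, the neural-like cells 22 and the erythroid-like cells 2. The row RGC-mRFP held 80 UMIs in the kept cells, 0 of them at E10, and 46 UMIs in 22 of 26 cells of E9.5 replicate 1 and 34 UMIs in 20 of 46 cells of E9.5 replicate 2. Another row, RGC-CRE, held 1 UMI, in a remaining cell of E9.5 replicate 1. What these rows stand for is not given in the sources used here, and their part in the members' values was not tested. A test for single batches far from the rest covered 18 groups and found none.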

How the results depend on the processing

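Of 750 alternative values 664 kept their direction and side of the threshold or moved little. The E10 minus E9.5 difference in shares changed sign for Prrx1 at 10 CPM (-1.68 points), at 50 CPM (-9.22) and with cells thinned to 30000 UMIs (-4.93), and for Pdgfrb under the same settings (-6.81, -16.4 and -12.8). With the transfer between batches subtracted it changed sign for Twist1 (1.15) and Pdgfra (0.732), and with 10 CPM as well for Prrx2 (-0.953) and Pdgfrb (-8.36). Leaving out 1 batch gave -2.98 to 12.2 points for Prrx1, 0.587 to 21.7 for Prrx2, -3.82 to 2.70 for Twist1, -13.5 to 3.82 for Twist2, -13.5 to 8.75 for Pdgfra and -12.5 to 18.7 for Pdgfrb.

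Co-expression at 1 UMI depended on the level. At 10 CPM, 50 CPM, thinned, and with transfer subtracted at 10 CPM, Prrx1 with Prrx2 stood at 49.7%, 33.7%, 43.2% and 48.0% (84.0% at 1 UMI), Twist1 with Twist2 at 41.5%, 22.4%, 30.6% and 39.8% (72.4%), Pdgfra with Pdgfrb at 32.3%, 16.7%, 25.9% and 32.3% (57.5%), and all 6 at 18.0%, 3.74%, 11.6% and 18.0%. Of the 5 genes most like Prrx2, 3 were kept with a pseudocount of 1, without centring on batches and without the Dppa5a-led cells, and 3 of those of Twist1 with a pseudocount of 1.

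No paired analysis was possible between stages because each batch holds 1 stage and its number only names it. Between classes of the same batch, no replicate block left 6 of 6 members called against erythroid-like cells (2431 genes) and 5 of 6 against neural-like cells (406 genes in place of 739, with Prrx2 at 1.26). Prrx2 was also not called with at least 5 cells a sum (1.16). DESeq2 called 86 genes between stages, 279 in the remaining cells, 1382 against neural-like cells and 84 between Hox groups, and with no filter 306 genes and 1 member, Prrx2 (1.17), were called between stages in the remaining cells and 96 genes between Hox groups, where no replicate block gave 0. Leaving out 1 batch gave 0 to 51 genes in the remaining cells between stages, 1144 to 3149 against erythroid-like cells, 405 to 752 against neural-like cells and 0 to 59 between Hox groups. The log2 fold changes between stages then ran from -0.28 to 0.93 for Prrx1, -0.12 to 1.25 for Prrx2, -0.81 to 0.38 for Twist1, -1.30 to 0.56 for Pdgfra and -1.61 to 0.55 for Pdgfrb, and in the remaining cells from -0.50 to 0.29 for Twist1 and -1.85 to 0.28 for Twist2. Without the Dppa5a-led cells Twist1 stood at 0.10 between stages. Between Hox groups leaving out 1 batch gave -0.74 to 0.43 for Prrx1, -0.24 to 0.37 for Twist1 and -0.75 to 0.20 for Pdgfrb, DESeq2 gave 0.0152 for Prrx1, no replicate block gave -0.11 for Twist1, and thinning gave -0.0215 for Twist1 and 0.24 for Pdgfrb. The cause of these moves was not tested.

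The Prrx2 share of its pair, neural-like minus remaining, was 34.8 points with transfer subtracted and 23.0 to 42.5 without 1 batch. The neural-like values are limited by few cells and counts, with 10 and 6 Prrx2 UMIs in the 4 and 3 cells of E10 replicate 2 and E9.5 replicate 1. The 5 batches limit the stage comparison.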
